A study of Mus musculus with 2 samples.

Results

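The genes described here are the ERK cascade with its feedback inhibitors and target factors, 36 genes taken by symbol from the 23284 genes of the count files. They are 11 dual-specificity phosphatases (Dusp1, Dusp2, Dusp4 to Dusp10, Dusp14 and Dusp16), 6 Sprouty and Spred inhibitors, 3 ETV and 4 EGR transcription factors, 3 ELK factors, 4 kinases and 5 other response genes (Ier2, Ier3, Phlda1, Myc and Errfi1). The cells were primary hepatocytes of C57BL/6 mice, that is liver cells isolated from the animal and cultured. The JMJD3 shRNA group was 1 library from cells infected for 48 h with lentivirus carrying an shRNA against JMJD3, the histone H3 lysine 27 demethylase encoded by Kdm6b. The control group was 1 library from cells infected for 48 h with control lentivirus. Each library came from cells pooled from 5 mice. Both cultures were infected 24 h after plating, and both then received 5 mM glucose and 10 µM forskolin, which activates adenylyl cyclase and so raises cyclic AMP, for 6 h to imitate fasting. No source used here states the promoter or the sequence of the shRNA. Every value below compares these 2 libraries, so no difference has a replicate check and no test between the groups is given.

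In the ERK cascade, receptors at the cell surface activate RAS, RAF kinases such as BRAF phosphorylate MEK1 and MEK2 (Map2k1 and Map2k2), and these phosphorylate ERK kinases such as ERK1 (Mapk3). Active ERK phosphorylates ELK factors, which with SRF switch on immediate early genes such as Egr1 and Ier2. It also induces its own inhibitors, among them DUSP phosphatases that remove phosphate from ERK and Sprouty and Spred proteins that act upstream on RAS and RAF. In hepatocytes the cascade is known for carrying signals of growth factors during liver regeneration. Phosphorylation of the kinases was not measured, only their RNA.

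The knockdown library held 18334366 counts over 16282 genes and the control library 11099562 counts over 15856 genes. Kdm6b, the targeted gene, had 33.0 CPM (counts scaled to library size) after JMJD3 shRNA, against 90.7 CPM in control, a ratio of 0.364 (0.329 to 0.403). Intervals throughout are exact binomial 95% intervals of the counts and cover counting error only. A gene was called measured when its mean over both libraries was at least 1 CPM, and it passed the rule of size when its ratio differed from 1 by 1.5-fold or more with 1 outside the interval. Hepatocyte markers were lower, with 6 of 8 measured markers passing the rule of size as lower and a summed 2103 CPM after JMJD3 shRNA, against 7848 CPM in control. The most abundant of them, the fibrinogen gene Fgb, had 846 CPM after JMJD3 shRNA and 3987 CPM in control. Cyp2e1, usually abundant in hepatocytes, had 0 counts in both libraries. Summed markers of other liver cells were closer together, at 28.9 CPM after JMJD3 shRNA and 27.5 CPM in control for macrophages (6 measured, none passing, Clec4f at 0 in both). Stellate cell and fibroblast markers summed to 233 CPM after JMJD3 shRNA and 250.2 CPM in control (8 measured, 3 lower). Sums can hide single differences, and Reln of that list had 17 counts after JMJD3 shRNA and 141 in control, a ratio of 0.0748. Endothelial markers summed to 57.0 CPM after JMJD3 shRNA and 59.9 CPM in control (8 measured, 1 higher, 2 lower). Cholangiocyte markers summed to 8432 CPM after JMJD3 shRNA and 8099 CPM in control, of which Spp1 alone held 8011 and 7795 CPM. All 6 measured cholangiocyte markers had a ratio above 1 and 3 passed as higher, with Krt7 highest at a ratio of 3.13. Blood and lymphoid markers summed to 2.87 CPM after JMJD3 shRNA and 3.29 CPM in control, with Cd3e and Nkg7 at 0 in both. Only 1 of these 8 markers was measured. The part of these markers in the results below was not tested. In such bulk libraries, fewer cells of a type and less RNA per cell cannot be told apart.

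Feedback inhibitors of the Sprouty and Spred families, the ETV factors, Egr1 and most other response genes were higher after JMJD3 shRNA, while the kinases lay near the control level. Of the 36 genes 31 were measured, 18 passed as higher, 2 passed as lower and 11 passed in neither direction. Over all 12607 measured genes 15.3% passed as higher and 12.8% as lower. The genes were picked with these results known, so nothing is read from the difference between those shares. At least 4-fold higher were 9 of the 31, namely Etv5, Spry1, Dusp6, Dusp5, Phlda1, Spry4, Egr1, Spred2 and Etv4, beside 1.37% of all measured genes. The median log2 ratio of the 31, knockdown over control, was 1.21, beside -0.0039 for all measured genes. Etv5 and Dusp5 had under 1 CPM in control and were measured only because of their level after JMJD3 shRNA. No exon of these 36 genes overlaps an exon of another gene in the files' models.

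**Figure D1:**
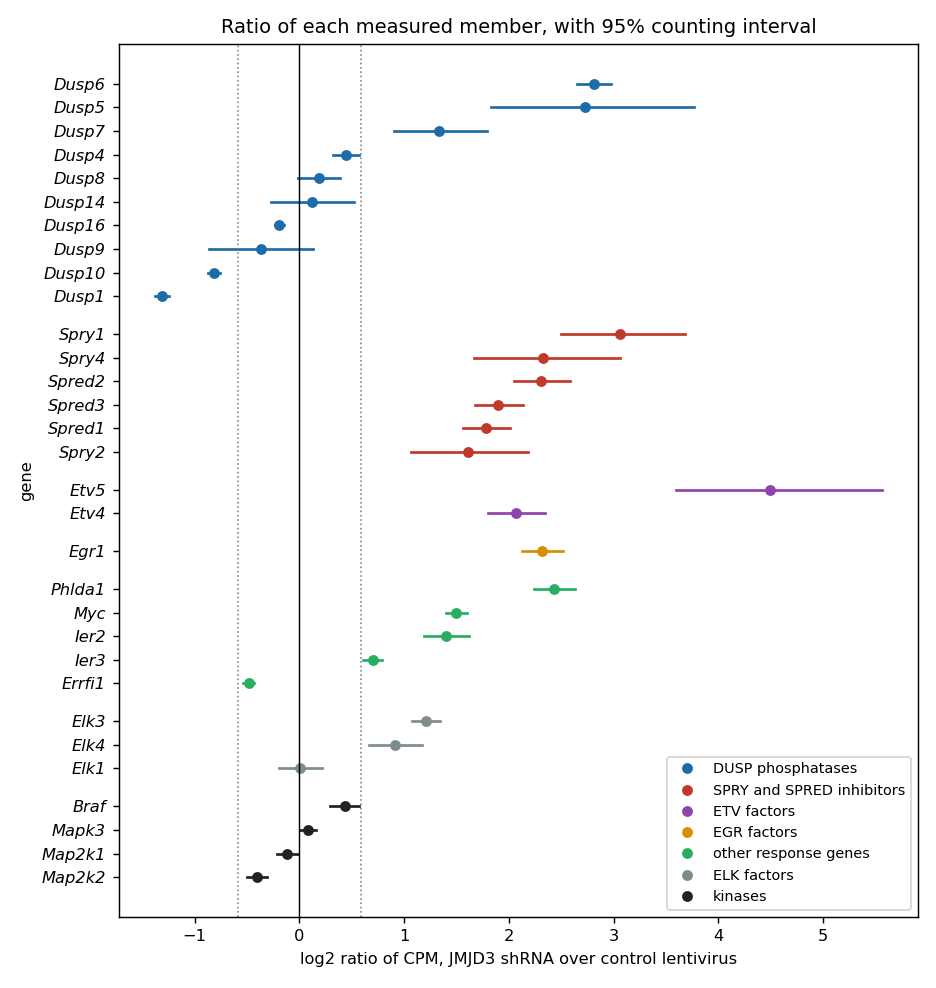
Log2 ratio of CPM, JMJD3 shRNA over control lentivirus, for the 31 measured genes (points) with exact 95% counting intervals (lines), grouped by family; dotted lines mark a 1.5-fold difference. All 6 Sprouty and Spred genes, both measured ETV genes and Egr1 lie to the right of the dotted line, the 4 kinases lie between the dotted lines, and the DUSP genes run from -1.31 to 2.81.

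The 4 kinases stayed within 1.5-fold of control. Mapk3, which encodes ERK1, had 205 CPM after JMJD3 shRNA and 194 CPM in control, with a log2 ratio at 0.08 (0.00 to 0.16). Map2k1, encoding MEK1, had 115 CPM after JMJD3 shRNA and 125 CPM in control, with a log2 ratio at -0.12 (-0.21 to -0.02). MEK2 transcripts, from Map2k2, were at 104 CPM after JMJD3 shRNA and 138 CPM in control, the lowest log2 ratio of the 4 at -0.40 (-0.50 to -0.31). Braf, a RAF kinase, was the highest at 71.5 CPM after JMJD3 shRNA against 53.0 CPM in control, with a log2 ratio at 0.43 (0.29 to 0.57). Both directions thus occur among the kinases, with Braf above and Map2k2 below control beyond counting error but inside the 1.5-fold limits. With counts divided by 2, for reads of a pair counted separately, the intervals of Mapk3 and Map2k1 included no difference. The median log2 ratio of the 4 kinases was -0.02 and the sum of their levels 497 CPM after JMJD3 shRNA, against 511 CPM in control. Braf has the longest exon total of the 36 genes, 9727 bp, and with the trend of the ratio on exon length removed its log2 ratio was -0.00095.

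All 6 Sprouty and Spred genes were higher after JMJD3 shRNA. Sprouty proteins are membrane-associated inhibitors of receptor signalling to RAS. Spry1 had 20.0 CPM from 363 counts after JMJD3 shRNA, against 2.40 CPM from 27 counts in control, a ratio of 8.35 (5.64 to 12.8). Spry4 had 9.39 CPM from 170 counts after JMJD3 shRNA and 1.87 CPM from 21 counts in control, a ratio of 5.02 (3.18 to 8.33). Spry2 had 9.22 CPM after JMJD3 shRNA and 3.03 CPM in control, a ratio of 3.05 (2.10 to 4.55). The intervals of these 3 genes are wide because their control counts were between 21 and 34, and that of Spry4 overlaps with both others. Spred proteins bind neurofibromin, which inactivates RAS, and bring it to the membrane. Spred2 had 57.4 CPM after JMJD3 shRNA and 11.6 CPM in control, a ratio of 4.96 (4.13 to 6.00). Spred3 had 62.5 CPM after JMJD3 shRNA and 16.7 CPM in control, a ratio of 3.73 (3.20 to 4.38), and Spred1 had 58.5 CPM after JMJD3 shRNA and 17.0 CPM in control, a ratio of 3.44 (2.95 to 4.04). With counts divided by 2 the intervals of all 3 Spred genes overlapped, so no order is read from them. Summed over the family the level was 217 CPM after JMJD3 shRNA and 52.6 CPM in control, a ratio of 4.13 (3.78 to 4.51), and the median log2 ratio of the 6 genes was 2.11. Per kb of exon the 3 Spred genes ranged from 15.4 to 20.0 CPM after JMJD3 shRNA and from 4.03 to 5.67 CPM in control, above each Sprouty gene in the same library.

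The DUSP genes differed in direction. Of the 10 measured, 3 passed as higher (Dusp5, Dusp6 and Dusp7), 2 as lower (Dusp1 and Dusp10) and 5 in neither direction. Over all measured genes 15.3% passed as higher and 12.8% as lower, and with 10 genes nothing is read from the counts beside those shares. The median log2 ratio of the 10 was 0.16. Dusp6, a cytoplasmic phosphatase selective for ERK, had 214 CPM from 3869 counts after JMJD3 shRNA, against 30.4 CPM from 342 counts in control. Its ratio of 7.02 (6.29 to 7.87) was the largest of the family, and only 54 of the 12607 measured genes had a higher one. In mm9 its 3 exons span 98725865 to 98730123 of chromosome 10, plus strand. Dusp7, of the same ERK-selective class, had 12.4 CPM after JMJD3 shRNA and 4.89 CPM in control, a ratio of 2.53 (1.87 to 3.46). Dusp9, the remaining gene of that class, had 4.42 CPM after JMJD3 shRNA and 5.69 CPM in control, and its interval of 0.552 to 1.10 included no difference. Per kb of exon Dusp6 was the most abundant of the class in both libraries. The class summed to 230.5 CPM after JMJD3 shRNA and 41.0 CPM in control.

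The nuclear, inducible phosphatases differed in direction from each other. Dusp5, which acts on ERK in the nucleus, had 6.46 CPM from 117 counts after JMJD3 shRNA and 0.979 CPM from 11 counts in control, a ratio of 6.60 (3.56 to 13.6). Dusp4, which acts on ERK and other MAP kinases in the nucleus, had 93.3 CPM after JMJD3 shRNA and 68.5 CPM in control, a ratio of 1.36 (1.25 to 1.48) that did not reach 1.5-fold. Dusp1, an immediate early phosphatase that acts on p38 and JNK as well as ERK, had the lowest ratio of the 31 measured genes. It had 165 CPM from 2984 counts after JMJD3 shRNA and 409 CPM from 4593 counts in control, a ratio of 0.403 (0.385 to 0.422). Dusp1 was the most abundant of the 36 genes per kb of exon in control, at 210.4 CPM per kb, where Dusp6 had 10.9. After JMJD3 shRNA the levels of Dusp1 and Dusp6 were 84.9 and 76.4 CPM per kb, so the gap between these genes was much smaller there. Summed, the nuclear class had 265 CPM after JMJD3 shRNA and 478 CPM in control.

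Of the 3 phosphatases directed mainly at JNK and p38, 0 passed as higher and 1 as lower, beside 15.3% and 12.8% of all measured genes. With 3 genes nothing is read from these counts. Dusp10 had 270.1 CPM after JMJD3 shRNA and 474 CPM in control, a ratio of 0.570 (0.548 to 0.592) that passed as lower. Dusp16, the most abundant DUSP gene per kb of exon after JMJD3 shRNA, had 637 CPM after JMJD3 shRNA and 727 CPM in control, a ratio of 0.876 (0.851 to 0.901). Dusp8 had 31.7 CPM after JMJD3 shRNA and 27.8 CPM in control, and its interval of 0.990 to 1.31 included no difference. This class summed to 938 CPM after JMJD3 shRNA and 1229 CPM in control, a ratio of 0.764 (0.747 to 0.781). The sum over all 11 DUSP genes was below control too, at 1442 CPM after JMJD3 shRNA and 1756 CPM in control. The atypical phosphatase gene Dusp14 had 8.34 CPM after JMJD3 shRNA and 7.65 CPM in control, with no difference beyond counting error. Dusp2 was not measured, with 4 counts after JMJD3 shRNA and 2 in control.

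**Figure D2:**
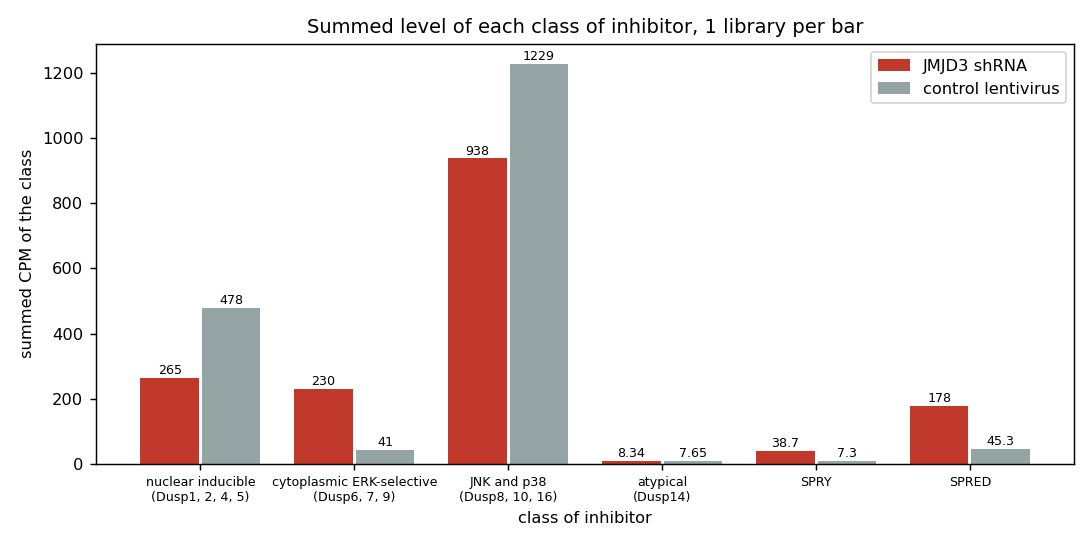
Summed CPM of each class of inhibitor (bars, from 0), JMJD3 shRNA in red and control lentivirus in grey, 1 library per bar and therefore no error bar. The ERK-selective Dusp6, Dusp7 and Dusp9 together, the Sprouty genes and the Spred genes are higher after JMJD3 shRNA, at 230.5, 38.7 and 178 CPM. The sums of the nuclear inducible and of the JNK and p38 directed phosphatases are lower. Within the nuclear class Dusp1 is below control, while Dusp4 and Dusp5 are above it.

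Promoter sequences are shown for the genes whose windows held a full cyclic AMP response element or paired serum response boxes, because both cultures were treated with forskolin and because ELK factors act with SRF at such boxes. RefSeq promoter windows on GRCm38.p6 run from 250 bases before to 50 bases after each start site, and 26 of the 36 genes had at least 1. The search covered both strands for TGACGTCA (the cyclic AMP response element), TGANTCA (AP-1), CCGGAAG (an ETS site) and the CArG box bound by SRF; none of these motifs overlaps another in the genes named. The response element was in a window of Dusp1, 1 of 2 genes with a window that passed as lower. Of 8 that passed in neither direction 3 held it, namely Dusp8, Errfi1 and Braf, with log2 ratios of 0.19, -0.48 and 0.43. It was in 0 of 4 genes that were not measured and in 0 of the 12 genes with a window that passed as higher. Of all 32851 windows, 1.79% held it. At so low a share, 0 of 12 genes is not read as a difference between the groups. Only 12 of the 18 genes that passed as higher had a window. Shares of all windows are per window, while a gene could have more than 1. In the sequences below, capitals mark the response element, or in Dusp5 the CArG boxes.
Dusp1, chr17:26508423-26508722, minus strand: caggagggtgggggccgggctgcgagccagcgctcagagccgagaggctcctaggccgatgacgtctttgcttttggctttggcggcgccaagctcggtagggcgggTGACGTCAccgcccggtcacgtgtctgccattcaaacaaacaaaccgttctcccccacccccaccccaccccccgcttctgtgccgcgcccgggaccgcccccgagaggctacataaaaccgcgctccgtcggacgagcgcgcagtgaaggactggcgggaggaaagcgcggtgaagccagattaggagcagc
Dusp8, chr7:142095235-142095534, minus strand: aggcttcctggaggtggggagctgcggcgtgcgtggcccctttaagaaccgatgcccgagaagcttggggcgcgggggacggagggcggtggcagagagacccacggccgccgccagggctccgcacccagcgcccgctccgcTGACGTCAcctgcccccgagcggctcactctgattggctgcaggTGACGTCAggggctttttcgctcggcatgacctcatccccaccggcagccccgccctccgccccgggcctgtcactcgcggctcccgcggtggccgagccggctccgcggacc
Errfi1, chr4:150854820-150855119, plus strand: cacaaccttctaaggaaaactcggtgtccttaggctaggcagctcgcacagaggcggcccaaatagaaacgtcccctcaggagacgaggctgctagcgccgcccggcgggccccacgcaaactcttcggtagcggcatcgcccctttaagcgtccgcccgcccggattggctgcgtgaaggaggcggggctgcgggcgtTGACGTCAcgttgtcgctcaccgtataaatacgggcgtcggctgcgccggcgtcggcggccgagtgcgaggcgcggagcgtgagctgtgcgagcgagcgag
Braf, chr6:39725414-39725713, minus strand: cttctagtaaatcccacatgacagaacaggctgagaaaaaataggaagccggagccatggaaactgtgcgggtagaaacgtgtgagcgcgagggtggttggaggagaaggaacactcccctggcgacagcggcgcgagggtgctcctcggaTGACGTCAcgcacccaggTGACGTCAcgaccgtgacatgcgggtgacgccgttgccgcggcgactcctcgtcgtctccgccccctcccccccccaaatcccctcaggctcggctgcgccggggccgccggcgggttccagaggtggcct
Dusp5, chr19:53528895-53529194, plus strand: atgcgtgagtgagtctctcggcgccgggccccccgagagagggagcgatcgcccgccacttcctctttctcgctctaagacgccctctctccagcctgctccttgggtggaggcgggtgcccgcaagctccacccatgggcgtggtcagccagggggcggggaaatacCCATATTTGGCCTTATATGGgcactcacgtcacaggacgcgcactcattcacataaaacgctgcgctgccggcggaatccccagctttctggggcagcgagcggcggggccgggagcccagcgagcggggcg
The element began at position -143 from the start site in Dusp1, at -107 and -63 in Dusp8, at -51 in Errfi1 and at -99 and -81 in Braf. Dusp5 held 2 adjacent CArG boxes beginning at -82 and -72, and Egr2 was the only other gene of the 26 with such a box, which 1.63% of all windows held. The ETS letters were found in Elk4 alone of the 26 (8.86% of all windows), and the AP-1 letters in 0 of the 26 (7.81% of all windows). The windows of Dusp6, Spry1 and Etv5 held none of the 4 motifs. A match describes the letters of a window and not the binding of a factor.

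The ETV factors, ETS-family regulators whose transcripts serve as a readout of ERK output in many tissues, were among the most different genes. Etv5 had 20.0 CPM from 362 counts after JMJD3 shRNA, against 0.890 CPM from 10 counts in control. The ratio was 22.5 with a wide interval of 12.1 to 47.3, and only 4 of the 12607 measured genes had a higher one. In mm9 its 13 exons span 22381386 to 22439643 of chromosome 16, minus strand. Etv4 had 48.8 CPM from 884 counts after JMJD3 shRNA and 11.7 CPM from 131 counts in control, a ratio of 4.19 (3.48 to 5.07). The intervals of Etv4 and Etv5 do not overlap, yet per kb of exon Etv4 remained the more abundant in both libraries, at 20.9 against 5.23 CPM per kb for Etv5 after JMJD3 shRNA. Etv1 was not measured, with 8 counts after JMJD3 shRNA and 1 in control, a ratio of 4.97 whose interval of 0.666 to 220.3 included no difference.

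Among the EGR zinc finger factors, immediate early genes induced within minutes of ERK activation, only Egr1 was measured. Egr1 had 108 CPM from 1953 counts after JMJD3 shRNA and 21.6 CPM from 243 counts in control, a ratio of 4.99 (4.36 to 5.72). Egr2 had 16 counts after JMJD3 shRNA and 3 in control, a ratio of 3.31 (0.948 to 17.7) that could not be told from no difference. Egr3 had 6 counts after JMJD3 shRNA and 0 in control, and Egr4 had 0 in both. Per kb of exon, Egr1 was at 35.1 CPM after JMJD3 shRNA and 7.04 CPM in control, and the other EGR genes were under 0.3 in both libraries. The ELK factors, which ERK phosphorylates at serum response elements, were higher by less or not at all. Elk3 had 114 CPM after JMJD3 shRNA and 49.6 CPM in control, a ratio of 2.31 (2.10 to 2.54). Elk4 had 29.1 CPM after JMJD3 shRNA and 15.5 CPM in control, a ratio of 1.88 (1.58 to 2.24), and Elk1 had 28.7 CPM after JMJD3 shRNA and 28.6 CPM in control, a ratio of 1.01 (0.873 to 1.16). The interval of Elk1 lies below those of both other ELK genes.

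Of the other response genes 4 of 5 were higher. Phlda1, a pleckstrin homology protein induced by growth factors, had 114 CPM from 2071 counts after JMJD3 shRNA and 21.2 CPM from 238 counts in control, a ratio of 5.40 (4.72 to 6.20). Myc, the growth-promoting transcription factor, had 256 CPM after JMJD3 shRNA and 90.6 CPM in control, a ratio of 2.82 (2.64 to 3.02). Ier2, an immediate early nuclear protein, had 51.7 CPM after JMJD3 shRNA and 19.6 CPM in control, a ratio of 2.64 (2.28 to 3.07). Ier3, an early response gene linked to cell survival, had 193 CPM after JMJD3 shRNA and 119 CPM in control, a ratio of 1.62 (1.52 to 1.73), the smallest of the genes that passed as higher. Errfi1, an inhibitor of the EGF receptor, stood apart from these, with 396 CPM after JMJD3 shRNA and 554 CPM in control. Its ratio of 0.715 (0.691 to 0.740) was below 1 beyond counting error but did not reach 1.5-fold.

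**Figure D3:**
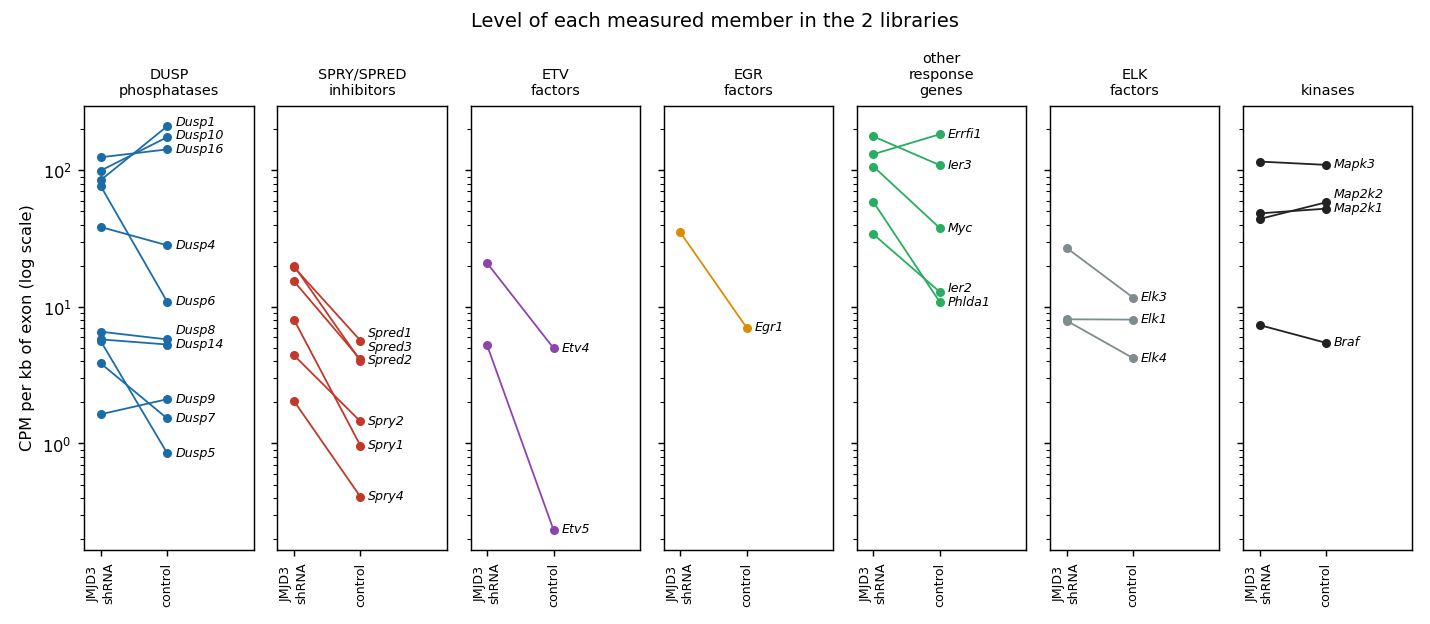
Level of each measured gene in CPM per kb of exon (log axis), JMJD3 shRNA on the left and control lentivirus on the right of each panel, 1 line per gene and 1 library per point. Lines of the Sprouty and Spred, ETV and Egr1 panels all slope down to control, those of the kinases are nearly level, and Dusp1, Dusp10 and Errfi1 are among those that slope up.

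Family by family, the median log2 ratio was 3.28 for the 2 measured ETV genes, 2.32 for Egr1, 2.11 for the Sprouty and Spred genes and 1.40 for the other response genes. It was 0.91 for the ELK factors, 0.16 for the DUSP genes and -0.02 for the kinases. No interval of a Sprouty, Spred, Etv4, Etv5 or Egr1 ratio overlapped that of any of the 4 kinases. Among the DUSP genes this held for Dusp5, Dusp6 and Dusp7 above the kinases and for Dusp1 and Dusp10 below them. These intervals cover counting error only, and the genes were picked with results known, so this is a description and not a test. Etv5 and Dusp5 were measured only because of their level after JMJD3 shRNA. In the authors' deposited table, 18 of the 31 genes had an adjusted p-value under 0.05 with a positive fold and 2 with a negative one, beside 14.6% and 11.8% of its 12838 genes. The submitters' processing notes name edgeR, but how it was run with 1 library per group is not stated. The largest difference between the log2 fold change of the authors' deposited table and the ratio above was 0.013. Both rest on the same 2 libraries, so the same 18 and 2 genes are not a separate check.

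Other genes of the pathway were set beside these. Over all measured genes 15.3% passed as higher and 12.8% as lower. The lists that follow were chosen with earlier results of these data known, so nothing is read from their counts beside those shares. Of 24 measured genes of the RAS to ERK cascade reported here beside the 36, 7 passed as higher and 0 as lower, with a median log2 ratio of 0.44. With the trend on exon length removed 5 of the 24 passed as higher. The RAS relatives Rras2 and Rras were at 0.84 and 0.42, and Dab2ip, a RAS GTPase-activating protein, was highest at 1.23. Named after their values were seen, Nf1, Rasa1, Rasa2 and Rasa3 also passed as higher and encode proteins of that kind, which inactivate RAS. The others that passed were Rras2 and Gab2. Rasal2, also of that kind, was at 0.36 and passed in neither direction. With the trend on exon length removed Nf1, Rasa1 and Gab2 did not pass, and with library totals Rasa1 did not. Lamtor3, a scaffold protein for MEK1 and ERK, was the lowest of the 24 at -0.35, with 31.9 CPM after JMJD3 shRNA and 40.8 CPM in control. Exons of Dab2ip overlap those of Gm13446, and strand was not used in counting, so its count is uncertain. Kinases that ERK phosphorylates had 2 of 8 higher and 0 lower, with Rps6ka3 highest at 1.08, Mknk1 at 0.29 and Mknk2 lowest at -0.40.

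Of 17 measured receptor tyrosine kinases 6 passed as higher and 2 as lower, and their median was 0.21. With the trend on exon length removed 4 of these receptors passed as higher and 3 as lower. Egfr, the EGF receptor and the most abundant of them per kb, had 1116 CPM after JMJD3 shRNA and 444 CPM in control, with a log2 ratio at 1.33. Ddr1, a collagen receptor, was at 0.33, Axl, the GAS6 receptor, highest at 1.89, and Fgfr4, an FGF receptor, lowest at -1.31. In the JNK and p38 cascades 4 of 16 kinases passed as higher and 2 as lower, and their median was 0.30. Map2k3 and Map2k6, which both phosphorylate p38, were the highest and the lowest, at 1.86 and -1.40. The abundant Mapkapk2, a p38 substrate kinase, was at -0.70, and Map2k7 was at 0.00037. Other dual-specificity phosphatases had 3 of 13 higher and 1 lower, with Dusp3 at 0.27, Dusp11 at 0.17 and the slingshot phosphatase Ssh2 highest at 0.83. With the trend on exon length removed 1 of these 13 passed as higher, and Ssh2 did not. Dusp13 was lowest at -0.99 on 17 counts after JMJD3 shRNA and 21 in control, with an interval that included no difference.

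Of 16 further genes listed as readouts of ERK activity, 12 passed as higher and 1 as lower, and their median was 1.39. All measured genes had 15.3% higher, 12.8% lower and a median of -0.0039. This list too was chosen with earlier results known, so it is a description and not a separate check. Epha2, an ephrin receptor, had 340.3 CPM after JMJD3 shRNA and 85.9 CPM in control, with a log2 ratio at 1.99, and Pea15a, an ERK-binding protein, was at 0.75. Fosl1, an AP-1 factor, was highest at 6.02 CPM from 109 counts after JMJD3 shRNA and 0.445 CPM from 5 counts in control, a ratio of 13.5 (5.62 to 42.5). Below 1 CPM in control, it was measured only through its level after JMJD3 shRNA, and its exons overlap those of Ccdc85b. Rgs2, a regulator of G protein signalling, was lowest, with 7 counts after JMJD3 shRNA and 48 in control, a ratio of 0.0905. Named after their values were seen, the cytokine Lif was at 3.32, the urokinase receptor Plaur at 3.22 and the EGF receptor ligand Hbegf at 2.24.

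**Figure D4:**
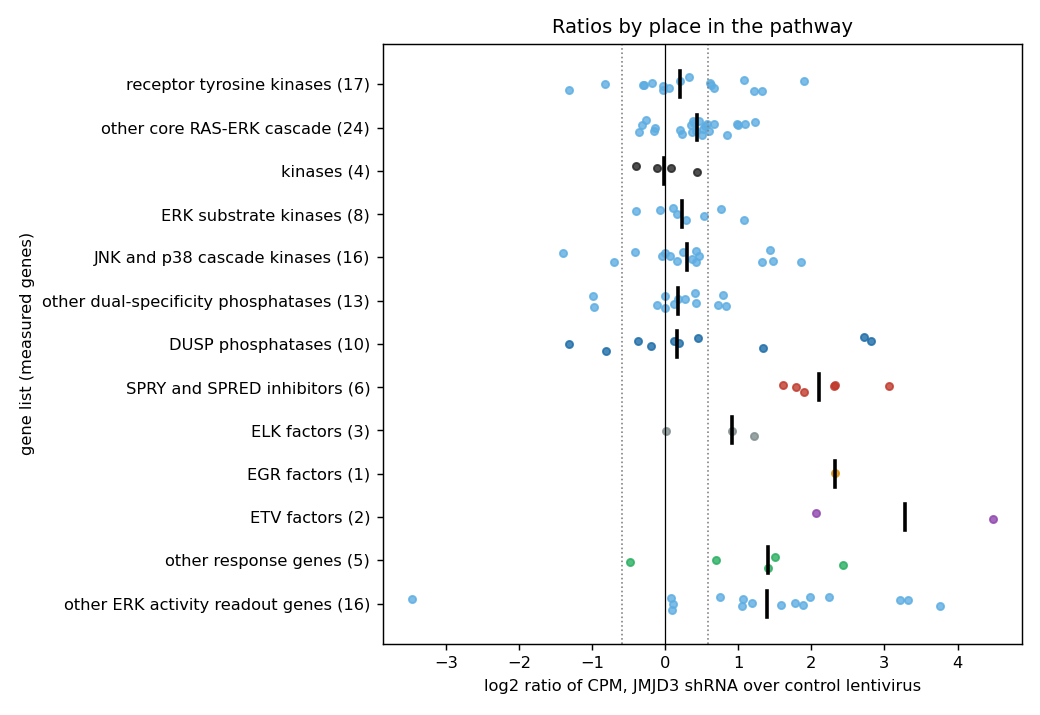
Log2 ratio of CPM, JMJD3 shRNA over control lentivirus, for every measured gene of each list (points, spread vertically for legibility) with the median of the list (black bar); dotted lines mark a 1.5-fold difference and brackets give the number of measured genes. Medians of the receptors, cascade and substrate kinases lie between -0.02 and 0.44, and those of the Sprouty and Spred, EGR, ETV and readout lists lie at 1.39 or above.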

How the data were processed

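RNA was sequenced from 2 libraries of mouse primary hepatocytes as 100 bp paired ends, per the labels. The deposited values are raw counts of reads for each gene, from featureCounts 1.4.6-p4 run on STAR alignments and UCSC gene models for mm9, without strand and with no option for read pairs, per the file headers. The submitters' processing notes also name Trimmomatic 0.36, STAR 2.5.3a and edgeR. The authors' deposited table gives log2 fold changes, log2 CPM, p-values and adjusted p-values for 12838 genes. Its fold had the sign of the knockdown over control ratio in 12600 of 12600 measured genes with counts in both libraries. Exon length in bp is from the count files.

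Library totals and TMM factors scaled the counts (edgeR 4.0.16, R 4.3.3). The log2 ratio used no pseudocount, and its exact conditional binomial (Clopper-Pearson) interval came from scipy 1.17.1. A gene was measured at a mean of at least 1 CPM and passed the rule of size at 1.5-fold with an interval excluding 1. With 1 library per group no test was made. Both reads of a pair and PCR copies may be counted, so intervals are too narrow. The ratio procedure was tested on simulated data. The genes and lists were chosen with earlier results of these data known. All 36 genes are named, and in each pathway list the 2 most abundant per kb, the highest and the lowest; others were named after their values were seen. Some genes of these lists are left out and not reported here. Alternatives were library totals, DESeq2 1.42.0 size factors, no filter or a minimum of 5 CPM, a 2-fold limit, counts divided by 2, removal of the exon-length trend (lowess, statsmodels 0.14.6), overlapping genes left out, and the authors' fold. The authors' fold rests on the same 2 libraries.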

Additional observations from a re-analysis of the deposited data

How the results depend on the processing

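Of the 36 genes, 18 passed as higher under each alternative, except that 16 did with a 2-fold limit and 17 with a minimum of 5 CPM, where Dusp5 is no longer measured. With a 2-fold limit 1 gene passed as lower in place of 2, because Dusp10 is less than 2-fold lower. Without a filter the median of the ETV genes was 2.31 in place of 3.28, because Etv1 enters, on 8 counts after JMJD3 shRNA and 1 in control. With the exon-length trend removed Kdm6b was at -1.75 in place of -1.46. In the other pathway lists together 34 genes passed as higher and 6 as lower, against 28 to 35 and 4 to 8 over the alternatives other than the 2-fold limit, with 28 higher once the exon-length trend was removed. No ratio of a measured gene that passed changed sign, and 5 single values left their counting interval, all with that trend removed (Dusp1 at -1.21, Dusp16 at -0.38, Ier3 at 0.95, Mapk3 at 0.20 and Braf at -0.00095). The median of all genes moved by less than 0.1 on the log2 scale under each scaling. No paired analysis was possible because each group holds 1 library, and for the same reason no replicate could be left out. Dusp2, Etv1, Egr2, Egr3 and Egr4 had at most 16 counts in a library and were not measured, and at such counts low depth and absence of the transcript cannot be told apart.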
